A study of Rattus norvegicus with 4 samples.

Results

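The D cyclins, their kinases CDK4 and CDK6, 2 inhibitors of these kinases and the retinoblastoma (Rb) family were followed in RTEC11 cells, a rat tracheal epithelial cell line. The genes were Ccnd1, Ccnd2, Ccnd3, Cdk4, Cdk6, Cdkn1b, Cdkn2c, Rb1, Rbl1 and Rbl2. Probe sets of the array were taken when the platform annotation paired them with exactly 1 gene symbol and that symbol was among these 10. This gave 12 probe sets for 9 genes, out of 12783 probe sets for 10411 genes; Rbl1 (p107) had no probe set and is not analysed here. Ccnd1 had 3 probe sets, Cdkn1b had 2 and the other 7 genes had 1 each.

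RTEC11 cells come from transgenic rats that carry a temperature-sensitive large T antigen of simian virus 40, so the cells of both groups hold the antigen gene. One group was grown for 3 days at 33 °C, the permissive temperature at which the antigen is active, and the other for 3 days at 39 °C, the nonpermissive temperature at which it is not. There were 2 arrays per temperature, and the labels do not say whether these were separate cultures. The p-values therefore measure only the spread between arrays, which may be technical. The limma p-values also borrow much of that spread from other probe sets. Culture temperature and antigen activity changed together and cannot be told apart, and all cells were of 1 line.

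In background, D cyclins bind CDK4 and CDK6, and the active kinases phosphorylate the Rb proteins. Unphosphorylated Rb proteins hold E2F transcription factors and keep the genes for DNA replication off, and phosphorylation frees them. Inhibitors of the INK4 family (such as p18, from Cdkn2c) bind CDK4 and CDK6 directly, and inhibitors of the CIP/KIP family (such as p27, from Cdkn1b) bind cyclin-CDK complexes. Large T antigen binds the Rb proteins and so acts downstream of the D cyclins. The array reads mRNA, so neither the antigen nor phosphorylation was measured.

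On the arrays, 8 of 10 airway epithelial markers lay above the limit for dim probe sets, a log2 value of 6.60, and the basal keratin Krt5 and the ciliogenesis factor Foxj1 lay below it. None of 2 endothelial and none of 4 leukocyte markers with a probe set lay above it. Of 9 fibroblast and smooth muscle markers 3 did (Col3a1, Acta2 and Des). The summed intensity of these 9 was 494.8 and 569.9 at 33 °C against 959.8 and 741.8 at 39 °C, and its part in the results below was not tested. The 10 airway epithelial markers summed to 57687.9 and 61675.5 at 33 °C against 69719.5 and 68867.7 at 39 °C. Of the 8 above the limit, 5 were called higher and 1 lower (3 and 3 with scaling to spike-in controls). Of all genes tested, 22.9% were called higher and 25.9% lower. With spike-in scaling, 1081 of all 9520 probe sets tested were called higher and 4371 lower. Scgb1a1 was among the 8 only through 39 °C, with 38.7 and 58.3 against 646.8 and 534.7. Of the 3 fibroblast and smooth muscle markers tested, Col3a1 was called higher at 39 °C (59.1 and 47.9 against 263.5 and 172.8, log2 change 1.61). Des (0.83) was called higher too, while Acta2 was not called. At 33 °C the mean log2 values of Col3a1 (6.16) and Des (6.47) lay under the limit. Both passed it only through their levels at 39 °C, so they had to differ in order to be tested. The Des call was lost with scaling to spike-in controls (0.58) and with no filter on dim probe sets. Myh11, under the limit, read 14.8 and 23.5 against 132 and 111.7, and the fibroblast marker Pdgfra lay between 3.1 and 7.6 on all arrays. The 3′ to 5′ intensity ratio of the beta-actin control was 1.18 and 1.33 at 33 °C against 1.38 and 1.26 at 39 °C, and that of the GAPDH control 1.17 and 1.14 against 1.12 and 1.01.

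The promoters of Rb1 and Cdk4 are shown first, because these members were called and their start regions hold letters known as binding sites of factors in this pathway. The sequences are those of RefSeq on GRCr8, from 250 bases before to 50 after the start site that the promoter table takes for the gene, in the direction of the gene. For Cdk4 this site is the outer bound of the RefSeq gene, and for Rb1 it lies 132 bases inside it. The Rb1 promoter is at chr15:54911808-54912107 on the minus strand, with an E2F match in capitals. The Cdk4 promoter is at chr7:64771203-64771502 on the plus strand, with 3 E-boxes in capitals.
Rb1: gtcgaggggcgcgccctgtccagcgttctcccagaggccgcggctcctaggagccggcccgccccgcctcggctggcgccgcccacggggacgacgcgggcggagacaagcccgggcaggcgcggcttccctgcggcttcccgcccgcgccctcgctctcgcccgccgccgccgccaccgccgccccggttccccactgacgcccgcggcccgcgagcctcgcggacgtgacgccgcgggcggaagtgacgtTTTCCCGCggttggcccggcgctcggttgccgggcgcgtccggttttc
Cdk4: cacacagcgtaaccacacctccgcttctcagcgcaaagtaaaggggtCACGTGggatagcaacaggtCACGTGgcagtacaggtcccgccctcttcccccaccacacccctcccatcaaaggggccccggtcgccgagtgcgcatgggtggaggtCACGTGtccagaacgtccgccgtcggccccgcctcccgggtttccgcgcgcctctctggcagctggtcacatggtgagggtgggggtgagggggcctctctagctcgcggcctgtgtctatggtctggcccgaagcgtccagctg
The E2F search took TTTCGCGC, TTTGGCGC, TTTCCCGC and TTTGCCGC on either strand, and the E-box search took CACGTG, which reads the same on both strands and can be bound by MYC and by other factors. The Rb1 match, TTTCCCGC, starts at base 3 of the transcript that begins at this site. Of the 7 promoters of the 10 genes in the RefSeq table, 2 held an E2F match, those of Rb1 and Rbl1. The share was 2.14% of all 33469 promoters, 4.18% of 6558 promoters of tested genes, and 13 of 21 in a list of well-known E2F targets. The CACGTG matches of Cdk4 were the only ones among the 7, and 0.0568% of all promoters and 0.107% of those of tested genes held 3 or more. A match describes letters and does not show that a factor binds.

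Among the tested probe sets, 2 genes stood well above the others in the cells at 39 °C: Ccnd2 was 9.98-fold higher and Rb1 3.91-fold higher than at 33 °C. Cdk6 was too dim to be tested, and its change, which depends on the constant added, is given below. The paralogs did not move in step. Ccnd1 was higher by 0.32 to 0.77 on the log2 scale depending on the probe set, Ccnd3 had a log2 change of -0.13 and Rbl2 one of 0.09. Cdk4 and Cdkn1b were higher by about the same small amount as the lower Ccnd1 probe sets. Values are log2(intensity + 16) after quantile normalization, a change is the mean at 39 °C minus the mean at 33 °C, and a probe set is called when the adjusted p of limma, over all 9520 probe sets tested, is under 0.05.

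Of the 12 probe sets, 10 (8 genes) were bright enough to be tested, and 7 of them (5 genes) were called higher and none lower. Of all probe sets tested, 22.5% were called higher and 47.2% were called in either direction. In 8 of the 10 the arrays at 39 °C lay above both at 33 °C, as in 35.1% of all probe sets tested. The median change of the 10 was 0.33, against -0.03 over all 9520. Rb1 passed the limit only through its level at 39 °C, so it had to differ in order to be tested. The limit falls between Rb1, with a mean log2 value of 7.37 over the arrays, and the second Cdkn1b probe set at 6.22.

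**Figure D1:**
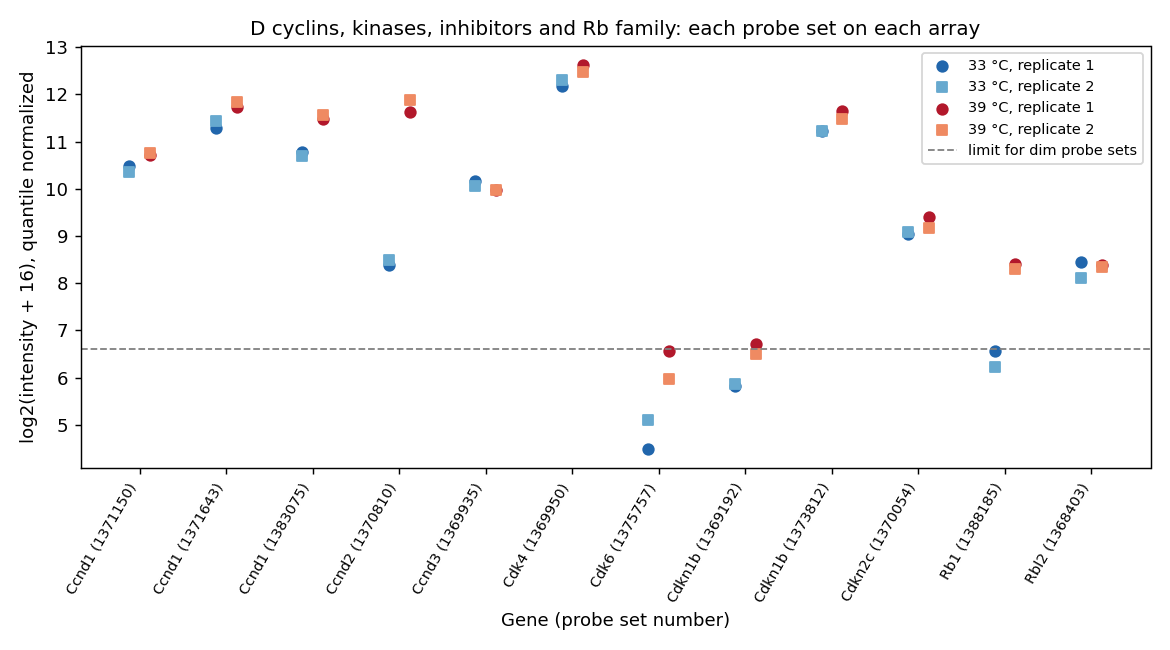
Level of each of the 12 probe sets on each of the 4 arrays, as log2(intensity + 16) after quantile normalization, blue for 33 °C and red for 39 °C, with the limit for dim probe sets (6.60) as a dashed line. Ccnd2 and Rb1 show the widest gaps between temperatures among the tested probe sets, while Ccnd3 and Rbl2 lie close together and Cdk6 stays under the line on all arrays.

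Ccnd2, which encodes cyclin D2, an activator of CDK4 and CDK6, had deposited intensities of 306.9 and 330.7 at 33 °C and 3080 and 3621.6 at 39 °C (probe set 1370810_at). Both arrays at 39 °C thus lay far above both at 33 °C. On the log2 scale the level was 8.44 ± 0.06 at 33 °C and 11.76 ± 0.18 at 39 °C (SD, n = 2 each). The change of 3.32 ± 0.12 (SE) had an adjusted p of 1.47e-08 by limma and was the 13th highest of 9520.

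Ccnd1, which encodes cyclin D1, was read by 3 probe sets. With 1383075_at the intensities were 1755.3 and 1658 at 33 °C against 2725.7 and 2897.2 at 39 °C, a log2 change of 0.77 ± 0.09 (SE, adjusted p 5.38e-05 by limma). With 1371643_at they were 2530.5 and 2807.1 against 3304.6 and 3479, a change of 0.43 ± 0.09 (adjusted p 0.0031 by limma). With 1371150_at they were 1414.4 and 1297.1 against 1650.7 and 1699, a change of 0.32 ± 0.10 (adjusted p 0.0231 by limma). The temperatures did not overlap in any of the 3, but the sizes differed. The 95% interval was 0.57 to 0.98 for the first, 0.22 to 0.63 for the second and 0.09 to 0.54 for the third. Within each array, the log2 ratio of 1383075_at to 1371150_at was 0.30 and 0.35 at 33 °C against 0.75 and 0.81 at 39 °C. The exact permutation test of this shift, two-sided, gave p = 0.333, the smallest that 2 against 2 arrays allow. The stretch of the transcript that each probe set reads was not analysed here. Leaving out permissive replicate 2 (0.25), nonpermissive replicate 1 (0.33) or nonpermissive replicate 2 (0.30) ended the call of 1371150_at.

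Ccnd3, which encodes cyclin D3, had intensities of 1130.9 and 1047.3 at 33 °C and 995.4 and 1006.5 at 39 °C. The arrays at 39 °C were thus slightly lower, without overlap. The log2 change of -0.13 ± 0.11 (SE) was not called (adjusted p 0.325 by limma), and its 95% interval of -0.37 to 0.10 leaves room for a small change either way.

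The 3 D cyclins were next compared with each other within each array, where a single scaling factor per array cancels. Quantile normalization shifts values by intensity, so its effect does not cancel. Levels of different probe sets cannot be set against each other, so what is read is the shift of their ratio between temperatures. The log2 ratio of Ccnd2 to Ccnd1, each by its brightest probe set, was -2.89 and -2.95 at 33 °C and -0.11 and 0.051 at 39 °C. It shifted by 2.89 ± 0.08 (SE, n = 2 each), a 7.42-fold change in favour of Ccnd2. The SE of a ratio comes from its own 2 arrays per temperature, whereas that of a single gene comes from limma. The ratio of Ccnd2 to Ccnd3 shifted by 3.45 ± 0.16, or 10.95-fold, and that of Ccnd1 to Ccnd3 by 0.56 ± 0.13, or 1.48-fold. The arrays of the 2 temperatures did not overlap in any of these ratios. With the mean of the 3 Ccnd1 probe sets in place of the brightest, the shift was 2.81 for Ccnd2 to Ccnd1 and 0.64 for Ccnd1 to Ccnd3. Without quantile normalization, the shift was 2.98 for Ccnd2 to Ccnd1, 3.45 for Ccnd2 to Ccnd3 and 0.46 for Ccnd1 to Ccnd3. Of 7 pairs of paralogs planned, 5 could be compared, and each gave p = 0.333 in the exact permutation test (two-sided, 0.333 after adjustment over the 5 pairs), the smallest this design allows.

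**Figure D2:**
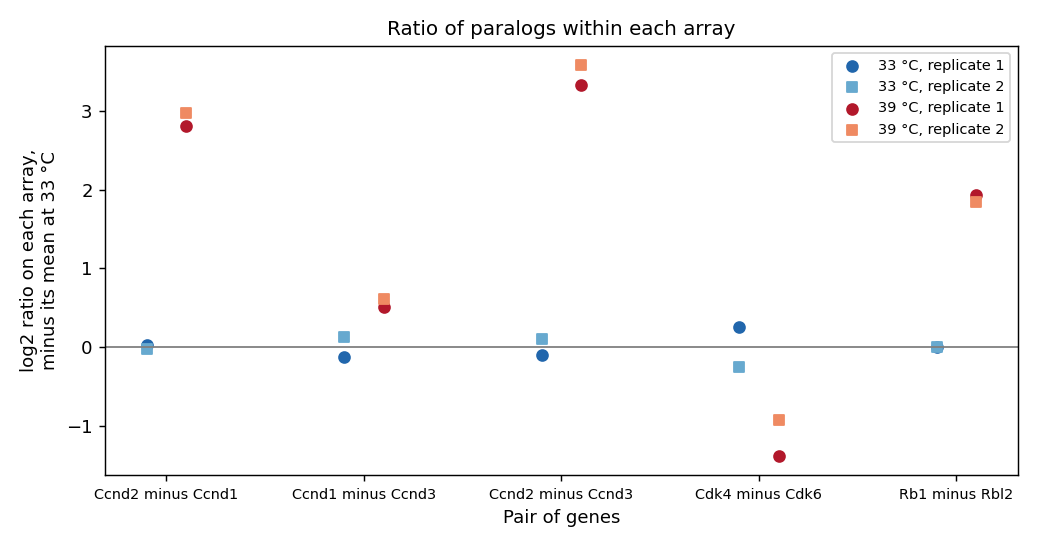
Log2 ratio of 5 pairs of paralogs on each array, with the mean of the ratio at 33 °C set to 0, blue for 33 °C and red for 39 °C. Both arrays at 39 °C lie above 2.5 for Ccnd2 over Ccnd1 and above 1.5 for Rb1 over Rbl2, while Ccnd1 over Ccnd3 shifts by 0.56 and Cdk4 over Cdk6 moves down.

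Of the kinases that D cyclins activate, Cdk4 had intensities of 4762 and 5143.6 at 33 °C and 6045.8 and 5561.4 at 39 °C, without overlap. The log2 change was 0.32 ± 0.09 (SE, adjusted p 0.0118 by limma). Leaving out permissive replicate 1 (0.26) or nonpermissive replicate 1 (0.25) ended the call. Myc, whose product can bind the E-box letters found 3 times in the Cdk4 promoter, had a log2 change of -0.54 ± 0.11 (SE, adjusted p 0.0023 by limma). Its intensities were 1103.8 and 1081.1 at 33 °C against 722.5 and 805.8 at 39 °C. Neither MYC protein nor its binding was measured, and a link to the Cdk4 change was not tested.

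Cdk6, the paralog of Cdk4, was dim on all arrays. Its intensities were 6 and 16.6 at 33 °C and 87.9 and 44.6 at 39 °C, so the arrays at 39 °C were higher, at levels under or near the limit of 81.1. It was not tested for that reason. With no filter on dim probe sets its log2 change was 1.47 ± 0.39 (SE) with an adjusted p of 0.0325 by limma, where 12.1% of all 15866 probe sets were called higher. The ratio of Cdk4 to Cdk6 shifted by -1.15 ± 0.34 (SE) with 16 added to each intensity, by -2.04 with 1 added and by -0.41 with 64 added, so its size is set by that constant.

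Among the members, the inhibitors Cdkn1b, by its bright probe set, and Cdkn2c changed little. The bright probe set of Cdkn1b (p27), 1373812_at, read 2435.2 and 2431.6 at 33 °C and 3128.7 and 2776.8 at 39 °C, without overlap. Its log2 change was 0.34 ± 0.10 (SE, adjusted p 0.0131 by limma), and the call was lost without nonpermissive replicate 1 (0.24). The second Cdkn1b probe set, 1369192_at, was below the limit for dim probe sets, with intensities of 38 and 41.4 against 97.8 and 73.8. Those values are higher at 39 °C as well, by 0.76 on the log2 scale, and were not tested. Cdkn2c (p18) read 495.1 and 513.7 at 33 °C and 671.1 and 577.5 at 39 °C. Its log2 change of 0.22 ± 0.13 (SE) was not called (adjusted p 0.180 by limma, 95% interval -0.062 to 0.51), although the arrays did not overlap.

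Rb1 encodes pRb, the protein that large T antigen and the D-type kinases both target. Its intensities were 73.6 and 56.1 at 33 °C, under the limit of 81.1, and 338.4 and 310.1 at 39 °C. The gap between temperatures was wide against the spread of the replicates, which was larger at 33 °C than at 39 °C. The log2 level was 6.39 ± 0.24 at 33 °C and 8.36 ± 0.09 at 39 °C (SD, n = 2 each), a change of 1.97 ± 0.21 (SE). With no filter on dim probe sets, where Rb1 is tested whatever its level, its adjusted p was 0.0012 by limma. Because Rb1 was dim at 33 °C, the size depended on the constant: the change was 2.19 with 1 added and 1.51 with 64 added.

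Rbl2 encodes p130, the Rb family member best known from resting cells. Its intensities were 320 and 246.5 at 33 °C and 329.3 and 322.6 at 39 °C, and after normalization the temperatures overlapped. The log2 change was 0.09 ± 0.16 (SE), not called (adjusted p 0.689 by limma), with a 95% interval of -0.27 to 0.44. Within arrays, the log2 ratio of Rb1 to Rbl2 was -1.89 and -1.89 at 33 °C and 0.037 and -0.052 at 39 °C. It shifted by 1.88 ± 0.05 (SE) or 3.69-fold in favour of Rb1. This SE rests on 2 arrays per temperature alone and cannot be set against the limma SE of either gene. This shift was 2.10 with 1 added and 1.44 with 64 added.

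The calls of the small rises depended on how the arrays were scaled, and those of Ccnd2 and Rb1 did not. With each array centred on its median, or scaled to 24 poly-A spike-in control probe sets, 3 probe sets were called higher: Ccnd2, Rb1 and 1383075_at of Ccnd1. Under spike-in scaling their changes were 2.95, 1.70 and 0.33. Under that scaling the median change of all probe sets was -0.35, the changes of Cdk4 (-0.15), Cdkn1b (-0.11), Cdkn2c (-0.086), Rbl2 (-0.18) and the other Ccnd1 probe sets (-0.078 and -0.036) had the opposite sign, and Ccnd3 was called lower (-0.50). Relative to that median, Cdk4 was at 0.19, Cdkn1b at 0.24 and Ccnd3 at -0.15. Rises made up 47.7% of all calls with quantile normalization and 53.8% as deposited, but 37.7% with median centring and 19.8% with spike-in scaling. The spike-in probe sets themselves read a mean log2 value of 6.63 and 6.69 at 33 °C and 6.99 and 7.09 at 39 °C, and the labels do not say how the spike-ins were added.

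**Figure D3:**
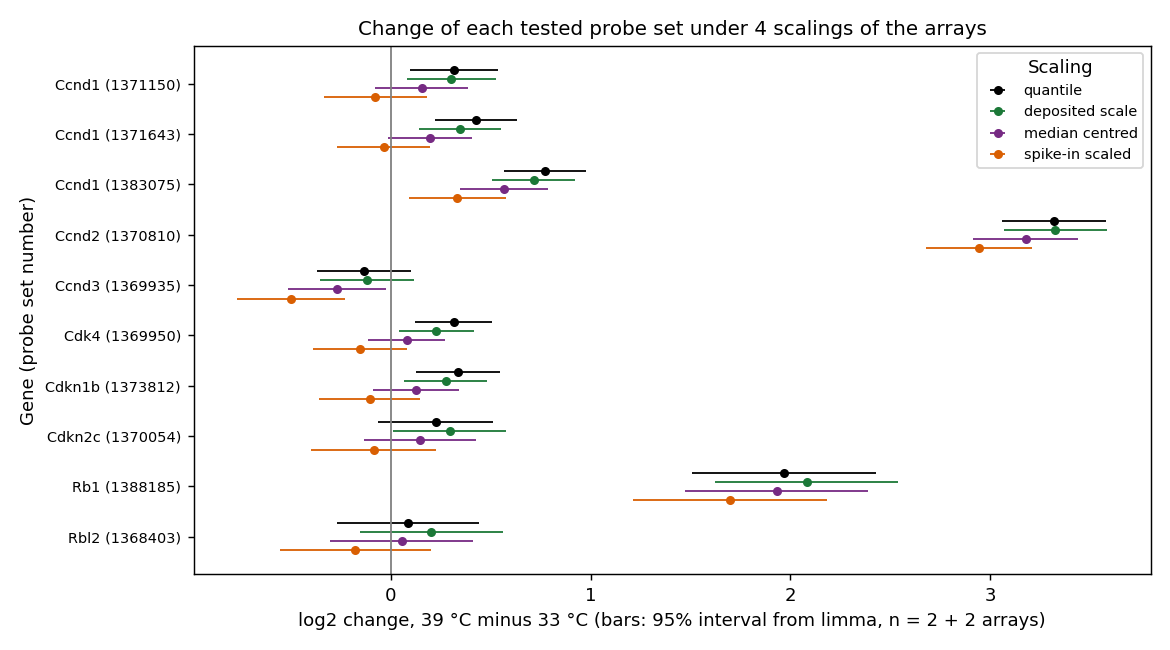
Log2 change (39 °C minus 33 °C) of the 10 tested probe sets under 4 scalings of the arrays, with 95% intervals from limma. The intervals of Ccnd2, Rb1 and 1383075_at of Ccnd1 stay above 0 under all 4, whereas those of Cdk4, Cdkn1b and the other Ccnd1 probe sets reach 0 under median centring and spike-in scaling.

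The other genes of the pathway were counted from 6 lists, with 1 probe set per gene. Over all 7016 genes so represented, 22.9% were called higher and 25.9% lower, with a median change of -0.04. The list counts under other scalings stand beside a background that also moved. Of all 9520 probe sets tested, 1823 were called higher and 3014 lower with median centring. With spike-in scaling 1081 were called higher and 4371 lower. Among 4 tested CDK inhibitors beyond the members, 3 were called higher and none lower, with a median of 0.97, and the same counts held under each of the 4 scalings. Cdkn1a (p21) read 196.3 and 302.1 at 33 °C and 1772.8 and 1298.2 at 39 °C, 5.69-fold higher, and 0.43 on the log2 scale by a second probe set, which was not called. Cdkn1c (p57), a CIP/KIP inhibitor like p27, read 550.7 and 537.3 against 1311.1 and 1377.6, a change of 1.24 ± 0.11 (SE, adjusted p 5.77e-06 by limma). Cdkn2b (p15), an INK4 inhibitor like p18, read 358.1 and 480.3 against 724.4 and 718.4, a change of 0.70 ± 0.15 (adjusted p 0.0022 by limma). Cdkn2a, which gives rise to p16 and p19ARF from overlapping transcripts, had a change of 0.21 and was not called.

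Of 6 tested genes of cyclin E, CDC25A and the CDK-activating kinase, none was called higher and 3 lower, with a median of -0.26. With spike-in scaling 4 were lower, and with no intensity trend 1, which ended the Cdk7 and Ccnh calls. With the replicate number as a block, 1 was called higher. Ccne1, which encodes cyclin E1, the partner of CDK2 after the D-type kinases, had a change of -0.83 ± 0.11 (SE). Cdk7, the kinase that activates CDKs, was at -0.38 ± 0.12 and its cyclin Ccnh at -0.33 ± 0.10. Leaving out permissive replicate 2 or nonpermissive replicate 2 ended both the Cdk7 and the Ccnh call, and leaving out nonpermissive replicate 1 ended that of Cdk7. Cdk2 had no probe set of its own.

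Of 5 tested E2F and DP factors, none was called higher and 2 lower (1 on the deposited scale, 4 with median centring or spike-in scaling, and 0 with no filter on dim probe sets or with no intensity trend), with a median of -0.32. They were E2f4, the main partner of p107 and p130, at -0.45 ± 0.14 (SE), and E2f6, a repressor that does not bind Rb proteins, at -0.35 ± 0.12. Leaving out any 1 of the 4 arrays ended the E2f6 call, and leaving out any array other than permissive replicate 1 ended that of E2f4. Of 6 tested Rb partners and genes of the MuvB complex, 2 were higher and none lower, against 1 and 3 with median centring and 0 and 4 with spike-in scaling. The remodelling ATPase Smarca4 was at -0.21 by the probe set used and not called, but at -0.46 and -0.51 by its other probe sets, both called lower (adjusted p 0.0110 and 0.0116 by limma). The deacetylase Hdac2 was at 0.46 ± 0.11 and the histone chaperone Rbbp7 at 0.37 ± 0.08 (SE), and both calls were lost without nonpermissive replicate 2. The Rbbp7 call was also lost with no intensity trend.

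Of 11 tested genes that fold or turn over D cyclins, CDK4 or p27, 3 were higher and 4 lower, against 1 and 7 with median centring or spike-in scaling. Gsk3b, a kinase that marks cyclin D1 for export and degradation, read 553.7 and 532.7 at 33 °C and 235.3 and 229.6 at 39 °C, 2.42-fold lower (log2 change -1.28 ± 0.14, SE). Fbxo31, the substrate receptor of a ubiquitin ligase that degrades cyclin D1, was at -0.70 ± 0.18. Cul4b, a ubiquitin ligase scaffold, was at 0.82 ± 0.15, and Skp1, a subunit of the SCF ligases that degrade p27, at 0.36 ± 0.08. The Skp1 call was lost with median centring (0.12) and spike-in scaling, where it was -0.11.

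Of 17 tested E2F targets, 11 were higher and 2 lower, with a median of 0.37. The counts were 7 and 2 with median centring and 1 and 3 with spike-in scaling, where the median was -0.00074. Under spike-in scaling the median over all probe sets tested was -0.35. Thymidylate synthase Tyms (1.35 ± 0.23, SE) and the helicase subunit Mcm7 (0.68 ± 0.08) had the largest rises, and thymidine kinase Tk1 (-0.53 ± 0.12) and the primase subunit Prim1 (-0.38 ± 0.09) were the ones called lower. Tyms was under the limit for dim probe sets at 33 °C, with 63.4 and 58.7 against 203.8 and 192.4. It passed the limit only through its level at the nonpermissive temperature, so it had to differ in order to be tested. Its call was kept with no filter on dim probe sets, where Tyms is tested whatever its level. The 1 target called higher with spike-in scaling was Tyms (1.09). Mcm7 was at 0.21 with spike-in scaling, without a call. The Prim1 call was lost with no intensity trend and without nonpermissive replicate 2.

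**Figure D4:**
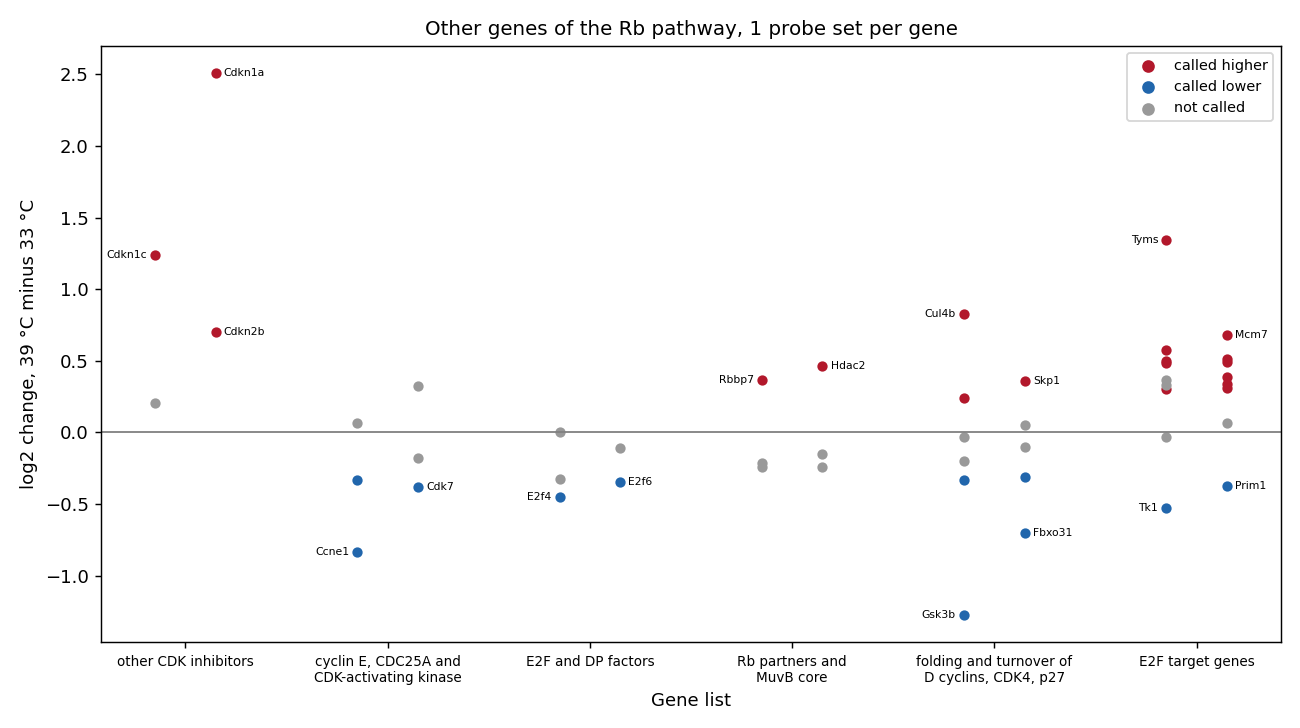
Log2 change (39 °C minus 33 °C) of each tested gene in 6 lists of the Rb pathway, after quantile normalization, red for genes called higher, blue for genes called lower and grey for genes not called. The CDK inhibitors lie above 0, the called genes of the cyclin E and E2F lists lie below 0, and most E2F targets lie between 0.3 and 0.7.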

How the data were processed

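Total RNA was labelled as biotinylated cRNA and hybridised to an Affymetrix rat array, per the labels' protocols. The authors' deposited values are linear intensities for 15923 probe sets, scaled, from the values, to a trimmed mean of 500 per array; the sources used here name no software for this step. With 2 arrays per group, precision is limited. For each probe set, limma had 2 residual degrees of freedom and borrowed a median of 9.23 from the other probe sets. The 57 control probe sets were left out, intensities were taken as log2(intensity + 16), which understates changes of dim genes, and the arrays were quantile normalized because their log2 medians spanned 0.175. Probe sets with a mean under the 40th percentile (log2 6.60, intensity 81.1) were left out as dim, and all others were tested with limma 3.58.1 in R 4.3.3 (intensity trend, two-sided, Benjamini-Hochberg, threshold 0.05), with groups from the sample titles. The fit was tested on simulated data.

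Gene symbols came from GEO's platform annotation and were checked by Entrez identifier against RefSeq (12754 matched, 0 symbols differed). For list genes, the probe set of highest mean was used (_x_at as a last resort). Named were all members and, per list, up to 2 called genes at each extreme of the change. Cdkn2b, Cdkn2a, Ccne2, Ccnh and Myc were named after their values were seen. The members and lists were chosen with earlier results of these data known. Alternatives were 3 other scalings, adding 1 or 64, other limits for dim probe sets, 1 probe set per gene, no intensity trend, a replicate block and leaving out each array. Figures were drawn with matplotlib 3.10.9.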

Additional observations from a re-analysis of the deposited data

How the results depend on the processing

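The count of probe sets called (4494) stayed within 1.5 times under every alternative, from 3339 to 5452. The 7 member probe sets called higher became 3 with median centring, 3 with spike-in scaling, where 1 was called lower, 4 with no intensity trend, and 4 to 6 when 1 array was left out (4 without nonpermissive replicate 1). With no trend the calls of Cdk4, Cdkn1b and 1371150_at of Ccnd1 were lost. Spike-in scaling reversed 1371150_at (-0.078) and 1371643_at (-0.036) of Ccnd1, Cdk4 (-0.15), Cdkn1b (-0.11), Cdkn2c (-0.086) and Rbl2 (-0.18), and Rbl2 ranged from -0.088 without permissive replicate 2 to 0.26 without permissive replicate 1. The 5 paralog shifts kept their direction under the 11 alternatives run for each. With the replicate number as a block, 7 member probe sets and 4857 in all were called. Same-numbered arrays did not deviate together (correlation -0.0060 over the tested probe sets). This single correlation cannot show whether same-numbered arrays shared anything beyond the number. Rb1 was not tested with the limit for dim probe sets at the 60th percentile.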
